A study of Mus musculus with 2 samples.

Results

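The regions described here are 11744 stretches of open chromatin inside introns of protein-coding genes in mouse hippocampus, each found in both of 2 DNase-seq libraries. The libraries are biological replicates 1 and 2 of 1 group: B6CASTF1/J mice, a hybrid with 1 parent from the wild-derived CAST strain, of 25 days of age, labelled male and untreated as far as the labels say, with the tissue given as layer of hippocampus. Each library has its own biosample under 1 common donor entry, which leaves unknown if 2 animals were used, and the spread between libraries may be technical. The peaks were selected on measured values: of 93545 peaks of replicate 1, 55952 overlapped 1 of the 79144 peaks of replicate 2 by at least 1 bp, and 46162 of those had a deposited peak value under 2 in replicate 1. Of these, 17156 had their middle base in an intron of a protein-coding gene and in no exon, and 11744 also touched no window of 1 kb on either side of a protein-coding transcription start site (TSS). The limit on the value took away few peaks, since 471 otherwise eligible shared peaks had a value of 2 or more. Sharing and the limit were part of the choice, so values in both libraries are given as a description, with no test.

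Introns are spliced out of the primary transcript, but their DNA carries enhancers, silencers, alternative promoters and binding sites for proteins that fold the chromosome. DNase I cuts DNA where nucleosomes are displaced, so such elements appear as peaks of cuts, and a protein that sits on its site leaves a short uncut footprint inside the peak. First introns begin next to the promoter and are known for regulatory elements near their start. In neurons, whose synaptic genes often have very long introns, intronic elements hold many of the enhancers that are used in one cell type and not another.

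The sequences below are among those of the highest replicate 2 values in peaks of at most 300 bp whose motif match overlaps a footprint in both libraries, 3 in first and 4 in later introns, 1 per gene. They are shown because the recognition sequence of CTCF, the zinc-finger protein that anchors chromatin loops, was the motif with the largest excess over intron sequence at large. Capitals mark the motif match, which is to CTCF in 6 of them and to CAGATG, an E-box read by neuronal basic helix-loop-helix factors, in the peak of Fgfr2 and Nsmce4a. The Bcl6 sequence also has the nuclear receptor core motif in capitals (TGACCT, the other strand of AGGTCA). All are on the forward strand of mm10.
BC049352, chr9:45221661-45221860: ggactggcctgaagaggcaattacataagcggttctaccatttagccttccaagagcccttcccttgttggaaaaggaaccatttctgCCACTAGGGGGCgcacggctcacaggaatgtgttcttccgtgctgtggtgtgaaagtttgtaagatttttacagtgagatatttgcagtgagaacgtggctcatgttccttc
Agap1, chr1:89524501-89524680: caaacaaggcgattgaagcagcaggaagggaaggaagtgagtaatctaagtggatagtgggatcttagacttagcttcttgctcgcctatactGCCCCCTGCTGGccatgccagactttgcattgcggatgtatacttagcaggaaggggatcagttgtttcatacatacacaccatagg
Bcl6, chr16:23984261-23984480: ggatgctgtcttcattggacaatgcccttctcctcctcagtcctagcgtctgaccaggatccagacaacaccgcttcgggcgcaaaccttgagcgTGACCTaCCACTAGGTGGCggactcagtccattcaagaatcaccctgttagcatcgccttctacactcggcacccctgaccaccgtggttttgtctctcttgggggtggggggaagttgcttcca
Dok5, chr2:170873481-170873680: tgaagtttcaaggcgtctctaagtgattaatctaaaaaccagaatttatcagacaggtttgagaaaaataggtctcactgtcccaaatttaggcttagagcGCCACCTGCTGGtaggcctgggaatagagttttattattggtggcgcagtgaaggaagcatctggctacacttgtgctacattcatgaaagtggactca
Afap1, chr5:35982101-35982280: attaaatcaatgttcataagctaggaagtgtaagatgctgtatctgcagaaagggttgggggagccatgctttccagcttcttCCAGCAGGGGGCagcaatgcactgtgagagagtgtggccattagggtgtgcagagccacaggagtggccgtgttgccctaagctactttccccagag
Agap3, chr5:24486181-24486380: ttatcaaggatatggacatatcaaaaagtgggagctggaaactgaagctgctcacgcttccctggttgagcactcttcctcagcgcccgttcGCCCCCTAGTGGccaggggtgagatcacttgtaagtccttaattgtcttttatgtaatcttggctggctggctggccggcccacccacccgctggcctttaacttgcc
Fgfr2 and Nsmce4a, chr7:130533381-130533580: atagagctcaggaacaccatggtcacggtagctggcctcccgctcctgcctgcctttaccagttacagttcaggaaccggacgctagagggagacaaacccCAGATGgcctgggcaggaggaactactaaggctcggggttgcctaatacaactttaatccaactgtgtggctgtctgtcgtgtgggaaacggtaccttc

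The first of these lies in intron 1 of BC049352 and had a value of 2.00 in replicate 1 and 3.37 in replicate 2, with 2 and 7 footprints. In intron 1 of Agap1, whose product regulates small GTPases in membrane traffic, the values were 1.98 and 2.66, with 4 footprints in each library. The Bcl6 peak, in intron 1 of the gene of a transcriptional repressor, had 1.90 and 2.31. Of the later-intron peaks, the one in intron 7 of Dok5, an adaptor of receptor tyrosine kinases, had 1.74 in replicate 1 and 2.84 in replicate 2. The peak in intron 11 of Afap1, an actin-binding protein, had 1.66 and 2.63, and the one in intron 9 of Agap3 had 1.96 and 2.60. In intron 10 of Nsmce4a, which lies inside the annotated span of Fgfr2, the CAGATG peak had 1.57 and 2.57. All 7 printed peaks were higher in the library labelled male replicate 2, the library whose values ordered them.

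Replicate 1 had 93545 peaks that cover 23.3 Mb and 223251 footprints, and replicate 2 had 79144 peaks that cover 18.04 Mb and 170016 footprints. Replicate 2 goes against its label of male: it had 4 peaks at Xist, the RNA gene of the inactive X, with values up to 1.01, against 0 in replicate 1, while 39 of its peaks and 40 of those of replicate 1 lay on the Y chromosome. Peaks within a list can overlap each other: 4430 peaks of replicate 1 overlapped an earlier one, as did 254 pairs of neighbouring peaks in the intronic set, so 1 open region can be counted more than once. The number of sequenced cuts behind a value is unknown, since no read counts are in the files used here.

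First introns held 2989 of the intronic peaks (25.5%, 95% exact binomial interval 24.7 to 26.2) and later introns 7610 (64.8%). The other 1145 lay outside the introns of the representative transcript of their gene or in introns that count as first for one gene and later for another. Per length, first introns had 14.8 peaks per Mb (95% Poisson interval 14.3 to 15.3) over 202 Mb, and later introns had 12.6 (12.3 to 12.9) over 603 Mb. The ratio of first to later introns was 1.17 (1.12 to 1.22). With all peaks of 1 library, shared or not, the ratio was 1.23 in replicate 1 and 1.19 in replicate 2, a mean of 1.21 ± 0.0286 (SD, n = 2). These intervals cover counting error only and treat peaks as independent, although 31.8% of the peaks lay within 5 kb of another and a peak next to a promoter is counted as intronic only beyond the 1 kb window.

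The excess in first introns was largest beside the promoter. At 1 to 2 kb from the nearest protein-coding TSS, 571 peaks in first introns gave 34.6 per Mb and 470 in later introns gave 16.2 per Mb, a ratio of 2.14 (1.89 to 2.43). At 2 to 5 kb first introns had 17.1 and later introns 15.2 per Mb, with a ratio of 1.13 (1.02 to 1.25). From 5 kb on, the 6 ratios lay between 0.812 and 1.04 and each interval included 1. Measured from the start of the gene's own transcript, the ratio was 0.814 (0.694 to 0.95) at 100 to 200 kb and 1.31 (1.12 to 1.53) beyond 200 kb, so there 2 intervals left out 1, on opposite sides of it. Over all peaks at 5 kb or more from the nearest TSS, first introns had 12.1 per Mb and later introns 12.05 per Mb, a ratio of 1.00 (0.952 to 1.06). Each library alone gave the same order at 1 to 2 kb, with 72.3 peaks per Mb in first and 35.1 in later introns in replicate 1, and 57.9 in first and 27.3 in later introns in replicate 2. Setting the promoter window at 2.5 kb instead of 1 kb took the overall ratio to 1.01 (0.961 to 1.06).

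**Figure D1:**
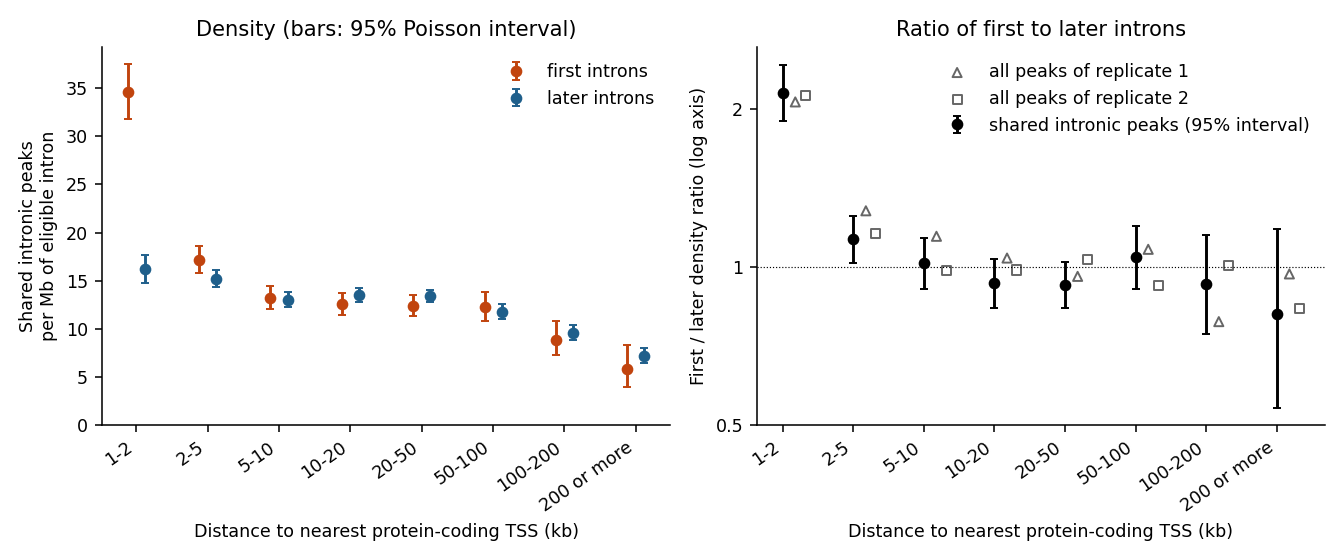
Shared intronic peaks per Mb of eligible intron (left) and the ratio of first to later introns (right, log axis) by distance to the nearest protein-coding TSS in kb. Points are densities or ratios with 95% intervals, open symbols are all peaks of 1 library, and the ratio is 2.14 at 1 to 2 kb and between 0.812 and 1.04 from 5 kb on.

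Some of the peaks at 1 to 2 kb adjoined a promoter peak. In first introns 122 of the 571 (21.4%, 18.1 to 25.0) lay within 200 bp of a replicate 1 peak that touched a promoter window, against 57 of 470 (12.1%, 9.32 to 15.4) in later introns. Without those peaks the densities were 27.2 per Mb in first and 14.2 per Mb in later introns, and the ratio was 1.92 (1.67 to 2.20). Their sequence differed as well: first-intron peaks at 1 to 2 kb averaged 3.15 CpG dinucleotides per 100 bp and later-intron peaks 2.17, whereas at 20 to 50 kb they averaged 1.94 and 1.86. They were also wider there, with a median of 252 bp in first and 220 bp in later introns.

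Inside the intron the largest difference was at the 5' end. Cut into 10 stretches of equal length, first introns had 33.3 peaks per Mb in the stretch at the 5' end and later introns 13.3, a ratio of 2.49 (2.22 to 2.80) in that stretch. Stretches 2 to 8 had ratios from 0.944 to 1.10, and each interval included 1. Near the 3' end first introns were denser again: stretch 9 had 15.2 in first and 12.2 per Mb in later introns, a ratio of 1.24 (1.09 to 1.42), and stretch 10 had 14.2 and 12.4, a ratio of 1.14 (0.993 to 1.31). By intron number, intron 1 had 14.8 peaks per Mb, intron 2 had 12.1 and intron 3 had 12.9. Introns 4 to 10 lay between 11.6 and 14.5, and introns from 11 on had 12.4. The last introns of genes, counted among the later ones, had 825 peaks at 14.6 per Mb (13.6 to 15.6), an interval that also included the density of intron 1. The densities of introns 9 and 10, 14.4 and 14.5 per Mb, had intervals that included that of intron 1. Within every class of intron length first introns were the denser, with ratios from 1.18 to 1.40, though the interval of the shortest class, under 2 kb with 28 first-intron peaks, included 1. With later-intron density applied to first introns by distance and length together, 2652 peaks came out against 2989 counted, a ratio of 1.13.

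**Figure D2:**
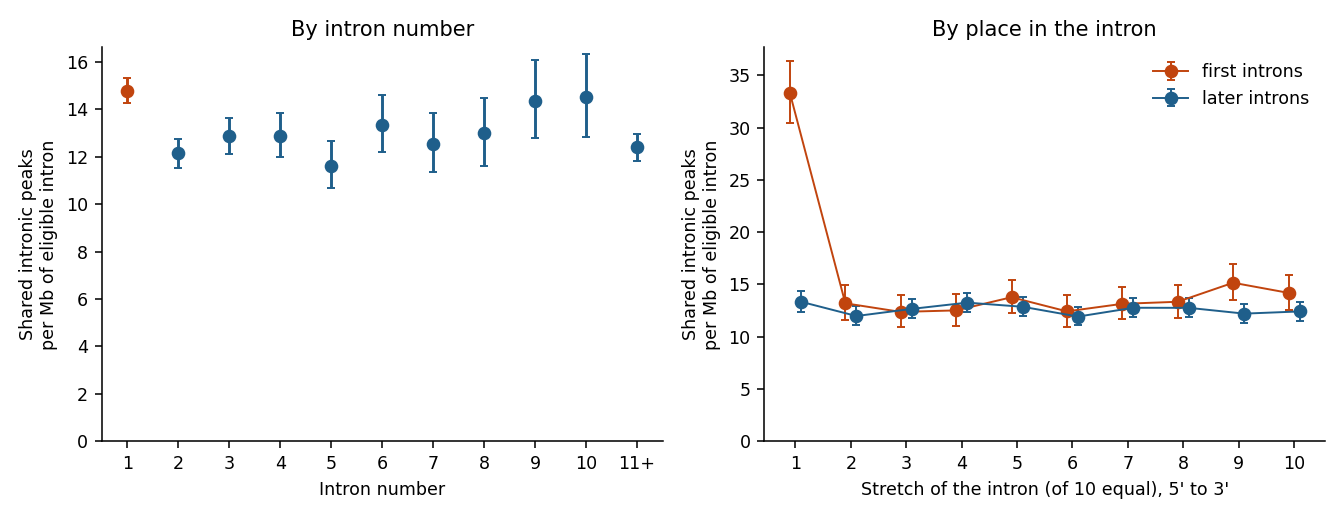
Shared intronic peaks per Mb of eligible intron by intron number (left) and by stretch of the intron, of 10 equal ones from its 5' end (right), with 95% Poisson intervals. Intron 1 is at 14.8 per Mb, and the 5' stretch of first introns, at 33.3 per Mb, stands above the other stretches of either class.

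Peak values differed little between the classes. In replicate 1 the median was 0.784 in first introns and 0.749 in later introns, and in replicate 2 it was 0.677 and 0.670. The interquartile range ran from 0.587 to 1.06 in first and from 0.558 to 1.03 in later introns in replicate 1, so the classes overlapped almost wholly. In replicate 2 the mean had the opposite order from the median, 0.768 in first and 0.786 in later introns. Among all intronic peaks the value of 1 library followed that of the other (Spearman's rho 0.822 over 11744 peaks, which share the library and its depth), and 98.5% were within 2-fold. Replicate 2 was the higher library for 29.2% of peaks in first and 37.5% in later introns, and in 171 peaks its value was 2 or more. The highest of these, in intron 3 of Gm10722, had 4.12 in replicate 2 and 0.332 in replicate 1 and lies wholly in repeat sequence (100% of its bases). How reads with many possible positions were handled is not stated. Among the next, intron 3 of Trp53inp1, a p53 target, had 2.80 in replicate 2 and 1.14 in replicate 1, in a peak with 63% of its bases in repeats. Intron 7 of Insc, a spindle orientation gene, had 2.71 and 2.00.

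The limit of 2 cut through a continuous range. Several peaks tied closest below it at 2.00 in replicate 1. Among them, those in Dis3l2, Lamb3 and Mllt10 had 1.86, 2.40 and 1.61 in replicate 2, while the tied peaks in BC049352 and Insc had the 3.37 and 2.71 given above. The closest above it, in Fbxl16, Mbp and the overlapping Ube2g2 and Gm49325, had 2.01 in replicate 1 and 1.54, 1.59 and 1.64 in replicate 2. Of the 471 shared peaks at or over the limit, 25.7% held a CTCF match.

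A footprint overlapped 81.0% of first-intron and 82.6% of later-intron peaks in replicate 1, and 77.99% and 80.9% in replicate 2. Both libraries had one in 65.7% of first-intron and 69.5% of later-intron peaks. Per kb of peak, first introns had 7.87 and later introns 8.10 footprints in replicate 1, and 7.37 and 8.06 in replicate 2. Footprints followed the peak value. In replicate 1 the share was 55.1% in first and 54.7% in later introns for values under 0.5. For values from 1.5 to 2 it was 98.0% and 99.2%. Peaks under 0.5 were also narrower, with median widths of 136 bp in first and 150 bp in later introns, against 300 and 220 bp from 1.5 to 2. The peaks with most footprints were wide and rich in G and C. In intron 2 of Nrn1, which encodes the activity-regulated neuritin, a peak of 1200 bp held 11 footprints in replicate 1 and 13 in replicate 2, with values of 1.61 and 1.21. In intron 1 of Scrt1, a neural zinc-finger repressor, a peak of 740 bp had 14 and 5 footprints and values of 1.89 and 1.71. Intron 1 of Gnai2, an inhibitory G protein subunit, had one of 920 bp with 12 and 7 footprints, and intron 2 of Kcnj6, a potassium channel opened by G proteins, one of 800 bp with 10 and 8.

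The peaks were set apart from the rest of intron sequence by base composition. Their GC content had a median of 53.5% in first and 52.5% in later introns, and repeats in lower case in the genome file made up 8.01% of their bases on average. Over the 4229184 windows of 200 bp that tile the eligible introns, mean GC content was 42.1% and the repeat share 29.9%. Motif shares were therefore read beside the same letters spelled backwards, which keeps the composition but not the CpG and other dinucleotides. A match is a description of the sequence on either strand and not a binding site.

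CTCF matches stood furthest from the background. In the middle 200 bp, 923 peaks (7.86%, 7.38 to 8.36) held the CTCF consensus, against 0.0984% of all intron windows, a ratio of 79.9. In windows of 100 bp the ratio was 138. The backward spelling was in 0 peaks, but it holds CpG and is in 0.00213% of windows, too few to serve as a comparison. Of the 984 matches, 83.6% in replicate 1 and 88.4% in replicate 2 had their middle base in a footprint, while footprints covered 8.48% and 7.09% of the bases of the peaks. Unlike the peaks at large, these were more frequent in later introns: 146 first-intron peaks (4.88%, 4.14 to 5.72) and 698 later-intron peaks (9.17%, 8.53 to 9.84) held a match. Per length that was 0.722 per Mb in first and 1.16 per Mb in later introns, a ratio of 0.624 (0.518 to 0.747), while peaks with no match had a ratio of 1.23 (1.17 to 1.28). The consensus itself was in 0.0826% of first-intron and 0.104% of later-intron windows. All peaks of 1 library gave the same order, with 2.43% in first and 4.52% in later introns in replicate 1, and 3.79% and 7.85% in replicate 2. The first-intron share was the lower at each distance up to 100 kb, from 2.80% against 8.94% at 1 to 2 kb to 3.03% against 6.12% at 50 to 100 kb. Beyond 100 kb, where 9 first-intron and 32 later-intron peaks had a match, the first-intron share was the higher with overlapping intervals.

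Peaks with a CTCF match also differed between the libraries. Replicate 1 gave them a median value of 1.02 and the library labelled male replicate 2 one of 1.18, and replicate 2 was the higher for 70.3% of them. Peaks with no match had medians of 0.742 and 0.645, and replicate 2 was the higher for 32.4%. CTCF peaks were narrower, with a median width of 180 bp against 220 bp. Of them, 94.6% in replicate 1 and 97.8% in replicate 2 held a footprint, against 81.0% and 78.6% of the others. That contrast was not made at equal value. Peaks with a replicate 1 value of 1 to 1.5, with or without a match, held one in 93.2% of first and 95.4% of later introns in replicate 1. In replicate 2 the shares for these were 89.7% and 93.4%. Among the intronic peaks of replicate 1 that replicate 2 lacked, 76 of 13866 (0.548%) had a match. Sharing was part of the choice, so that contrast is a description.

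**Figure D3:**
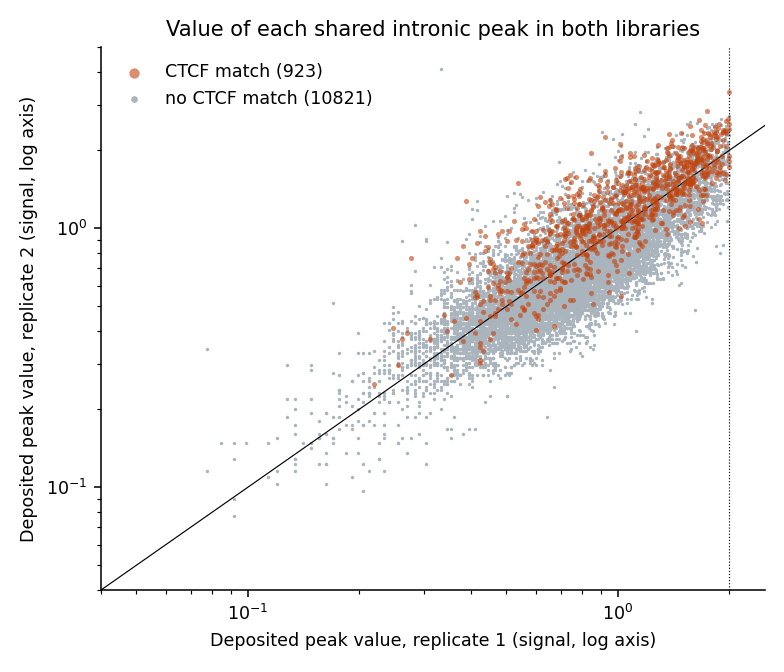
Deposited peak value of each of the 11744 shared intronic peaks in replicate 1 (x, log axis) and replicate 2 (y, log axis), with the 923 peaks that hold a CTCF match in colour and the limit of 2 as a dotted line. Most CTCF peaks (70.3%) lie above the line of equal values and most others below it.

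Several other motifs were more frequent than in intron windows. The E-box CAGATG was in 25.6% of peaks and 14.95% of windows, a ratio of 1.71, while its backward spelling had a ratio of 0.610. Its share was 24.6% in first and 26.4% in later introns, and it was lowest next to the promoter, with 16.6% in first and 22.1% in later introns at 1 to 2 kb. The E-box CAGCTG was in 19.9% of peaks and 7.60% of windows, a ratio of 2.61. Its backward spelling, GTCGAC, had a ratio of 1.97 but holds a CpG that CAGCTG lacks, so it is not a like comparison. The consensus of NFI, factors of glial and neuronal differentiation, was in 0.826% of peaks and 0.0750% of windows, with 63.3% and 52.3% of matches in a footprint in replicates 1 and 2. That of RFX, known for ciliary genes, was in 17 peaks (0.145%) and 0.00582% of windows. The backward spellings of NFI and RFX, which hold CpG too, were in 0 peaks and are too rare in windows for a comparison.

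Motifs with CpG varied in how far they stood from their backward spellings. GGGCGG, read by SP1 and KLF factors, was in 8.10% of peaks and 1.78% of windows, a ratio of 4.55, and backward the ratio was 4.46. It was in 10.4% of first-intron and 6.90% of later-intron peaks, and backward in 10.9% and 7.33%. GCGTGGGCG, the EGR site of activity-induced genes, was in 20 peaks with a ratio of 20.5, and backward the ratio was 24.0. In replicate 1, 44.0% of its 25 matches were in a footprint (24.4 to 65.1), against 11.8% (1.46 to 36.4) of the 17 backward ones. In replicate 2 the share was lower, 28% (12.1 to 49.4), against the same 11.8% backward. The intervals of the 2 spellings overlapped in both libraries. TGACGTCA, bound by CREB, was in 36 peaks with a ratio of 2.97, against 1.67 backward. CCGGAAGT, bound by ETS factors, was in 33 peaks with 2.63 (1.81 to 3.69), against 1.18 backward. The backward spellings of TGACGTCA and CCGGAAGT hold no CpG, while those of GGGCGG and GCGTGGGCG keep it. Peaks averaged 2.02 CpG per 100 bp and all windows 0.815, so the backward ratios of TGACGTCA and CCGGAAGT do not account for CpG. Without CpG, the AP-1 site (TGACTCA or TGAGTCA) was in 4.60% of peaks and 3.28% of windows, a ratio of 1.40 against 0.937 backward. In replicates 1 and 2, 5.42% and 4.10% of its matches were in a footprint, against 6.11% and 5.05% of the backward ones. Both spellings lay below the 8.48% and 7.09% of peak bases that footprints covered. GGAATG, read by TEAD factors, was in 11.8% of peaks and 10.6% of windows, a ratio of 1.12 against 0.813 backward.

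Some motifs were less frequent in peaks than in intron windows, most of them rich in A and T. The MEF2 consensus was in 1.51% of peaks and 4.62% of windows, and TAATTA, read by homeodomain proteins, in 2.70% and 7.20%, with ratios of 0.326 and 0.375. Backward the ratios were 0.200 and 0.366. ATGCAAAT, bound by POU factors, had a ratio of 0.539. Its backward spelling had 0.472 but was in 8 peaks and holds a CpG that ATGCAAAT lacks, so it is not a like comparison. AACAATGG, bound by SOX factors, had a ratio of 0.615 against 0.830 backward. AGGTCA, bound by nuclear receptors and not rich in A and T, had a ratio of 0.776, while its backward spelling, of the same composition, had 1.10. In the 14393 shared intergenic peaks under the same limit, CTCF was in 8.67%, CAGATG in 23.5% and GGGCGG in 9.16%, and 82.2% in replicate 1 and 80.2% in replicate 2 had a footprint, against 82.0% and 80.1% of the intronic peaks.

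**Figure D4:**
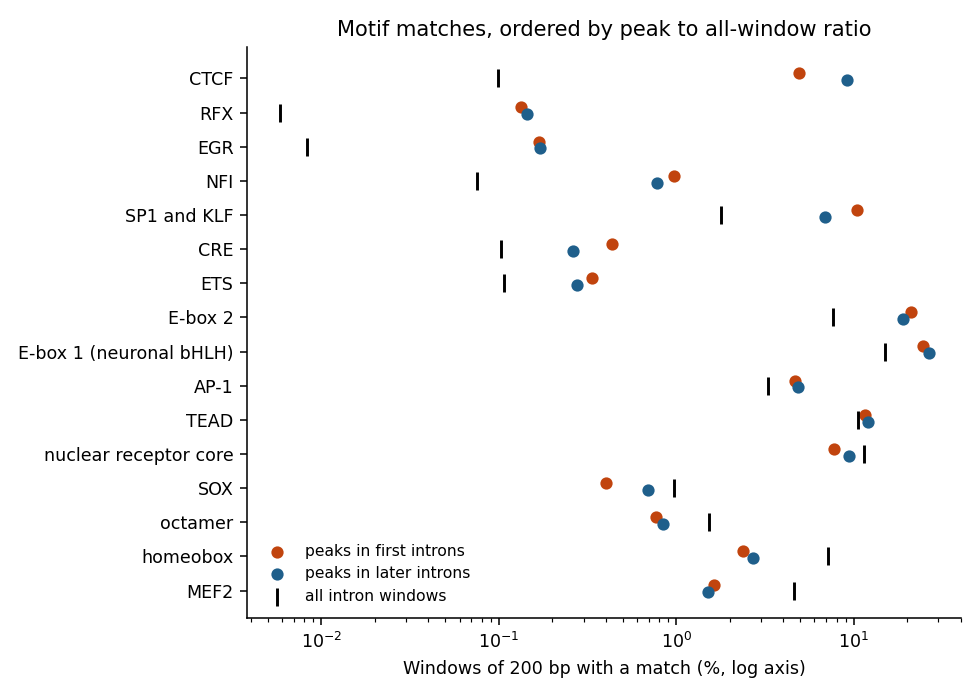
Share of 200 bp windows with a match to each of 16 motifs (x, log axis, percent) for shared intronic peaks in first introns, in later introns and for all eligible intron windows, where E-box 1 is CAGATG and E-box 2 is CAGCTG. CTCF is at 4.88% in first and 9.17% in later introns and 0.0984% in all windows, while MEF2 and homeobox matches are rarer in peaks than in windows.

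Of 19306 protein-coding genes with eligible intron, 5007 (25.9%) had at least 1 of the peaks, 591 had 5 or more and 14 had 20 or more. The share went up with intron length: 5.78% of genes with under 10 kb of eligible intron had a peak and 94.8% of those with 500 kb or more. Per Mb the ends of that range had the opposite order, with 19.5 peaks in the shortest class and 9.61 in the longest. Host genes had open promoters more often: 82.8% (81.8 to 83.9) of genes with an intronic peak and 60.4% (59.6 to 61.2) of genes with none had a promoter peak in both libraries. The shares were 90.2% and 81.1% for genes with 100 kb or more of eligible intron and 73.2% and 50.9% for genes with under 10 kb. The median host gene had 1 peak. Of 3824 genes with both intron classes and a peak, 758 had peaks in both classes, and of the 98 with 10 or more peaks 39 were denser in the first intron.

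Among the genes with most peaks, Gm20388 had 117, all in what its annotation makes a first intron. Of these, 100 were classed as first-intron peaks, and the rest lay where another gene has a later intron. Gm20388 is a predicted gene that spans 4.43 Mb of chromosome 8. Of its peaks, 50 also lie in another protein-coding gene, 16 of them in Gse1 and 8 in Cbfa2t3. Without the introns of predicted genes named Gm and a number, the ratio of first to later introns was 1.16 (1.11 to 1.21). Fgfr2, a fibroblast growth factor receptor, had 48 peaks, of which 2 lay in introns of its representative transcript and the rest elsewhere in a gene annotated over 2.96 Mb. Auts2, a regulator of neuronal gene expression linked to autism, had 29, with values from 0.417 to 1.26 in replicate 1 and from 0.367 to 1.21 in replicate 2.

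The cell adhesion gene Ntm (neurotrimin) had 24 peaks, 17 of them in its 547 kb first intron and 7 in later introns, which is 31.1 and 17.3 per Mb. Cdh13, a cadherin tied to the membrane by a lipid anchor, had 0 in the first intron and 24 in later introns. Trpm3, a heat-sensing cation channel, had 9 in its first intron and 13 in later introns, 16.3 and 47.6 per Mb. Maml3, a Notch co-activator, had 13 in the first and 7 in later introns, and Sorcs2, a sorting receptor for neurotrophins, 10 and 8. Ephb2, an ephrin receptor of excitatory synapses, had 3 in the first intron and 12 in later introns, 11 of these in intron 3.

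Short genes gave the highest densities. Kdm6b, a histone H3K27 demethylase, had 6 peaks in 6.54 kb of eligible intron, with 5 in the first intron, and their values ran from 1.29 to 1.70 in replicate 1 and from 0.838 to 1.55 in replicate 2. Of those 5, some overlap each other. Bcl6 had 7 in its first intron and 0 in later introns, with values from 0.841 to 1.90 in replicate 1 and from 0.761 to 2.31 in replicate 2. The Bcl6 peak with 0.841 lies inside a wider one with 0.947, and both have 1.06 in replicate 2. Llgl1, a cell polarity gene, had 9 in later introns, none above 0.445 in either library.

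Some of the counts came from tight runs of peaks. Phactr3, a regulator of protein phosphatase and actin, had 15 peaks in 9.98 kb, with medians of 0.212 in replicate 1 and 0.219 in replicate 2. In Apba2, which encodes a synaptic adaptor protein, 10 first-intron peaks lay in 7.62 kb, with medians of 0.350 and 0.287. In Zfand3, 12 later-intron peaks lay in 8.88 kb, with medians of 0.428 and 0.351. These runs were of low values, but Mid1 had 14 peaks in 18.7 kb with medians of 0.791 and 0.844. In all, 682 peaks had at least 10 peaks of replicate 1 within 20 kb, with medians of 0.735 and 0.609, and without them the ratio of first to later introns was 1.15 (1.10 to 1.20).

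The peaks of gene lists were set beside the 13.3 per Mb (13.1 to 13.6) of all protein-coding genes, whose median gene had 0 peaks. Markers of excitatory neurons, with 11 genes measured, had 14 peaks in 6 genes, 54.3 per Mb (29.7 to 91.1), with a median of 1 per gene. Of these 9 lay in first introns, and later introns alone had 21.8 per Mb. In Slc17a7, the vesicular glutamate transporter VGLUT1, all 3 peaks lay in the first intron, with values of 1.00, 1.20 and 1.17 in replicate 1 against 0.844, 0.844 and 0.877 in replicate 2. The first 2 of them overlap and share their replicate 2 partner. Repeats make up 65.2% and 52.8% of the bases of these 2, against 8.01% on average over all the intronic peaks. Nptx1, a pentraxin that gathers AMPA receptors at synapses, had 4 in its second intron, at 0.551 to 0.749 in replicate 1 and 0.509 to 0.593 in replicate 2. Camk2a, the kinase of synaptic plasticity, had 3 in its first intron, with values of 1.51, 1.43 and 1.07 in replicate 1 and 1.12, 1.52 and 0.806 in replicate 2.

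CA pyramidal cell markers had 23 peaks in 6 of 10 genes, 28.8 per Mb (18.3 to 43.2). They were led by the kainate receptor subunit Grik4 with 4 in the first intron and 7 in later introns. A Grik4 peak in intron 13 held a CTCF match. The 4 peaks of Nptx1 count in this list and in that of excitatory neurons. All peaks of 1 library gave the CA list 76.4 per Mb in replicate 1 and 40.1 in replicate 2. Dentate granule cell markers had 19.0 per Mb (11.3 to 30.0) and inhibitory neuron markers 8.72 (4.77 to 14.6), with 5 of 6 peaks in Erbb4, a neuregulin receptor, in its first intron. Later introns alone had 4.24 per Mb for inhibitory neuron markers. Oligodendrocyte markers had 8 peaks in 4 of 8 genes, 44.0 per Mb (19.0 to 86.8), of which 5 were in the myelin gene Mbp. The highest Mbp peak, with 1.65 in replicate 1 and 2.04 in replicate 2, held a CTCF match. Endothelial markers had 15 in 4 of 8 genes, 25.1 per Mb (14.1 to 41.5), with 7 in Pecam1, and mural cell markers 29.2 per Mb (13.3 to 55.4), or 15.5 in later introns alone. Astrocyte markers had 22.2 per Mb (8.94 to 45.8) and oligodendrocyte precursor markers 12.4 (8.25 to 17.9), with 18 of 28 peaks in Sox5, a transcription factor gene. Microglial markers had 1 peak in 11 genes, in Cx3cr1, which also held a CTCF match, 3.36 per Mb (0.0851 to 18.7). Without the need to be shared, they had 7 peaks in replicate 1 (23.5 per Mb) and 10 in replicate 2 (33.6 per Mb), against 29.1 and 22.2 per Mb over all genes. Liver markers had 3 peaks in 2 of 10 genes, 12.9 per Mb (2.67 to 37.8), of which the one in Hnf4a held a CTCF match too. Skeletal muscle and heart markers had 9 peaks in 5 of 9 genes, 15.2 per Mb (6.96 to 28.9). With all peaks of 1 library, dentate granule cell markers had 28.5 per Mb in replicate 1 and 24.3 in replicate 2, and liver markers 12.9 and 25.9. Both lists were below all genes in replicate 1 and above them in replicate 2. Skeletal muscle and heart markers had 23.7 and 18.6, below all genes in each library though above them in shared peaks. Bulk tissue does not tell fewer open cells from less open chromatin per cell, and the part of each cell type in these peaks was not tested.

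Among the pathway lists, voltage-gated calcium channel genes had peaks in 12 of 13 genes and 19.7 per Mb (15.6 to 24.6), with 13 each in Cacna1c and Cacna1d, the L-type pore subunits. Postsynaptic scaffold genes had 19.3 per Mb (15.5 to 23.9) and long-intron transcription factor genes 17.4 (14.7 to 20.6). Calcium-calmodulin signalling genes had 16.3 (11.9 to 21.7) and neuronal RNA-binding genes 11.8 (8.94 to 15.3). With all peaks of 1 library, the RNA-binding genes had 32.7 per Mb in replicate 1 and 27.1 in replicate 2. All genes had 29.1 and 22.2, so this list was above them in each library though below them in shared peaks. Glutamate receptor genes had 10.8 per Mb (8.73 to 13.1), with 15 peaks in Grm7, 7 in its first and 8 in later introns. GABA receptor genes had 10.4 (6.98 to 14.96), with 11 of 29 in Gabbr2, a subunit of the metabotropic receptor, 7 of them in its first intron. Potassium channel genes had 10.8 (8.15 to 13.9), and all 8 of Kcnq3, an M-current subunit, were in the first intron. A Kcnq3 peak with 1.72 in replicate 1 and 1.97 in replicate 2 held a CTCF match. With all peaks of 1 library, glutamate receptor genes had 31.9 per Mb in replicate 1 and 18.1 in replicate 2. Potassium channel genes had 29.6 and 16.8. Both lists were above all genes in replicate 1 and below them in replicate 2. The remaining pathway lists with peaks kept their side of all genes in each library. Synaptic adhesion genes, whose introns sum to 18.9 Mb, had the lowest density of the pathway lists with any peak, 8.05 (6.82 to 9.44), with peaks in 19 of 22 genes. The 10 housekeeping genes with eligible intron, 0.114 Mb in all, had 0 peaks, which allows up to 32.5 per Mb by the Poisson interval.

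**Figure D5:**
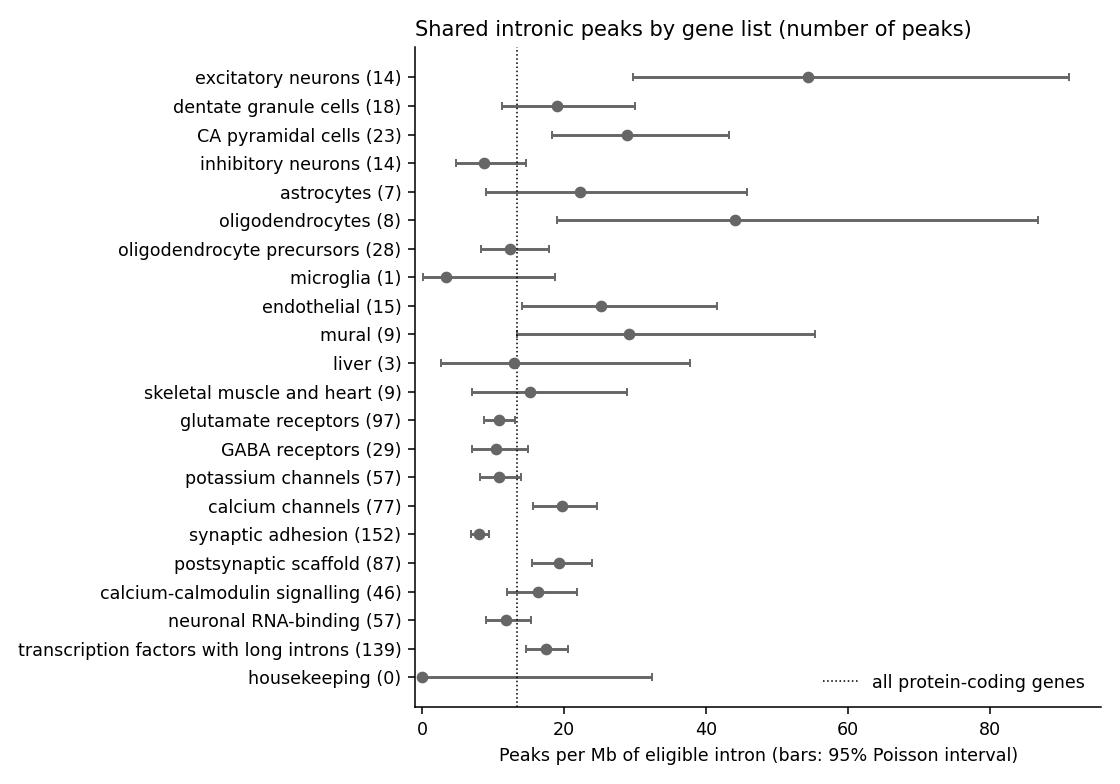
Shared intronic peaks per Mb of eligible intron in each gene list, with 95% Poisson intervals, the number of peaks in brackets and the 13.3 per Mb of all protein-coding genes as a dotted line. Excitatory neuron markers are at 54.3 per Mb and synaptic adhesion genes at 8.05 per Mb.

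Rbfox3 encodes the neuronal nuclear protein NeuN and had 9 peaks, 3 in its first intron and 6 in later introns. The first-intron values were 0.912, 1.14 and 1.24 in replicate 1 and 0.715, 1.45 and 1.45 in replicate 2. The peaks with 1.14 and 1.24 lie side by side with the same footprint count in replicate 2, so they may share their replicate 2 partner. In intron 2, neighbouring peaks about 21 and 22 kb from the nearest TSS both held a CTCF match, with 1.46 and 1.66 in replicate 1 and 1.56 and 1.97 in replicate 2. These 2 were the ones in that intron that were higher in replicate 2, and the other 3 there were higher in replicate 1.

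On the X chromosome the peaks were sparse and low. It held 202 of them, 5.05 per Mb (4.37 to 5.79), against 13.8 per Mb (13.5 to 14.0) on the autosomes, and the Y chromosome held 0. The median on X was 0.477 for replicate 1 and 0.506 for the library labelled male replicate 2, and on the autosomes 0.763 and 0.677. Replicate 2 was the higher for 55.9% of X peaks and 35.04% of autosomal ones. The Xist peaks in replicate 2 go with this, and their part in it was not tested. Mid1, which crosses the pseudoautosomal boundary in laboratory mice, had 20 of the X peaks, and without them the medians were 0.459 and 0.477.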

How the data were processed

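Peaks, footprints and runs of bases with a false discovery rate were deposited by the authors for each library on mm10, made from that library's own alignments per the file lists that came with them, while labels and headers name no program. The value of a peak is a signal as deposited by the authors, with no scaling stated, so depth is unknown. The deposited q-value is the authors' false discovery rate per run of bases, listed up to 0.05. The longer of 2 deposited peak lists was used for each library. A peak was paired with the replicate 2 peak of largest overlap.

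The annotation was GENCODE M21, and sequence was read from GRCm38.p6 (RefSeq), which is the build called mm10. Eligible intron was every base inside a protein-coding transcript, in no exon of any gene and outside the promoter windows. Introns were numbered in 1 representative transcript per gene (best APPRIS rank, then longest coding sequence). Intervals are exact (Poisson, Clopper-Pearson and conditional binomial for ratios of densities, 95%) and cover counting error only. Motifs were searched on both strands as consensus sequences in windows of 200 bp. With 1 group and peaks chosen on their values, no test was run. The named genes were the 10 with most peaks and the 10 densest with at least 5 peaks, the 2 leading genes of each list, the peaks with highest replicate 2 value or most footprints, and the genes with most peaks in 1 intron. Some of these genes and sequences are not reported here. Others, such as Camk2a, Gse1 and Cbfa2t3, and the comparisons by CTCF match, promoter peak and single library were chosen after values were seen. The peaks, lists and motifs were chosen with earlier results of these data known. Interval code was tested on simulated data. Tools were scipy 1.17.1, pandas 2.3.3 and numpy 2.4.6 under Python 3.11.15, with matplotlib 3.10.9 for plots.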

Additional observations from a re-analysis of the deposited data

How the results depend on the processing

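No paired analysis was possible because there is 1 group. The ratio of first to later introns stayed above 1 under every setting run, and was nearest to 1 with promoter windows of 2.5 kb, at 1.01, where first introns held 21.98% of peaks. With a reciprocal overlap of at least 50%, 7472 peaks gave a ratio of 1.09 and 24.0% in first introns, and with the shorter, stricter peak lists 4017 peaks gave 1.11 and 24.0%. Each library alone gave 19585 to 25610 peaks, ratios of 1.19 to 1.23 and shares of 26.0% to 26.6%. First introns held 27.9% with introns numbered in the longest transcript, 42.4% (ratio 1.10) with the first intron of any transcript, and 24.6% without predicted genes named Gm and a number. The remaining settings (no limit on the value, exons of protein-coding genes alone, promoter windows of all biotypes, pairing from replicate 2, no dense runs, no repeats, autosomes alone) kept the ratio between 1.15 and 1.19.

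By distance, libraries alone gave ratios of 1.16 to 1.28 at 2 to 5 kb, 0.983 to 1.14 at 5 to 10 kb, 0.985 to 1.04 at 10 to 20 kb and 0.958 to 1.03 at 20 to 50 kb. Measured from the start of the gene's own transcript, the ratio was 0.814 at 100 to 200 kb and 1.31 beyond 200 kb, and the cause was not tested. The replicate 2 value in first minus later introns was -0.0183 by means against 0.00645 by medians. The CTCF share was 3.901% to 6.65% with libraries alone, 2.43% to 3.79% in first and 4.52% to 7.85% in later introns. Depth is unknown, so peaks absent from a list may be too shallow to be listed.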
